A study of Mus musculus with 8 samples.

Results

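Collagen hydroxylation and crosslinking enzymes were examined as a set of 10 genes, picked by symbol, of 53801 in the counted table. The set holds P4ha1, P4ha2 and P4ha3, Plod1, Plod2 and Plod3, Lox, Loxl1 and Loxl2, and Serpinh1. RNA came from stromal cells of mouse small intestine that lacked CD45, a marker of blood cells, and CD31, a marker of endothelium. Cells of LTβR-YFP mice, whose reporter is named after the lymphotoxin beta receptor, were split by flow cytometry into a YFP+ and a YFP- fraction, with 4 libraries of each. No drug, age or further allele is given in the labels, both fractions came from reporter mice, and how the reporter is driven is not given in the sources used here. Total counts per library lay between 23404630 and 29829232 for YFP+ and between 23272858 and 28688906 for YFP-.

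YFP+ and YFP- are used here as the sample descriptions, the genotypes and the headings of the count columns give them. The sample titles give the opposite sign in all 8 samples, and were the titles right, each direction below would be the reverse. Pdgfra, a receptor that marks fibroblasts, averaged 1036 ± 128 CPM (counts scaled to library size) across YFP+ libraries and 1055 ± 51.3 CPM across YFP- libraries (SD, n = 4 each). Ptprc, which encodes CD45, lay between 0.535 and 6.22 CPM across YFP+ libraries and between 0.907 and 5.66 CPM across YFP- libraries. Pecam1, which encodes CD31, lay between 2.63 and 7.07 CPM across YFP+ libraries and between 5.11 and 11.8 CPM across YFP- libraries. Pdgfra was thus far above Ptprc and Pecam1 in every library. Other genes of the gated-out cells were higher than these, with the immunoglobulin gene Igha between 21.2 and 249 CPM across YFP+ libraries and between 51.7 and 212 CPM across YFP- libraries, and the endothelial receptor gene Tek at 27.3 ± 4.66 CPM across YFP+ libraries and 46.4 ± 10.4 CPM across YFP- libraries.

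Collagen chains are modified before and after they leave the cell. In the endoplasmic reticulum, prolyl 4-hydroxylase converts prolines to hydroxyproline, which holds the triple helix together at body temperature, and lysyl hydroxylases convert lysines to hydroxylysine, on which sugars and later crosslinks are built. Serpinh1, also called HSP47, is a chaperone that binds folded procollagen there. Outside the cell, lysyl oxidases turn lysine and hydroxylysine side chains into aldehydes that crosslink collagen and elastin. Fibroblasts are the main makers of fibrillar collagen in the gut wall.

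Calls differed between isoenzymes, although no ratio between isoenzymes could pass a test over 4 pairs, as given further on. P4ha2, P4ha3 and Plod2 were lower in YFP+, Plod1 and Loxl2 were higher, and P4ha1, Plod3, Lox, Loxl1 and Serpinh1 did not pass. The log2 ratio given for a gene is that of YFP+ over YFP-. Calls come from edgeR's quasi-likelihood test with libraries of equal replicate number taken as pairs, at an adjusted p of 0.05 over all 16354 genes tested. Of the 10 genes, all tested, 3 fell and 2 rose, against 7.85% lower and 3.65% higher over all tested genes, or 11.5% in either direction. Apart from P4ha3, which had few counts, the called differences lay between -0.37 and 0.22 on the log2 scale. All 5 called genes moved in 1 direction in 4 of 4 pairs, which 30.2% of all tested genes did, and only P4ha3 among the 10 had groups that did not overlap, which 9.64% of all tested genes had. P4ha3 reached the tested genes through YFP-, where it was higher, since its counts in YFP+ replicates 2 and 3 were too low for the filter. Neither its place among the 3 falls nor this gap is therefore taken as support.

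The calls rest on the pairing. Without the replicate block 0 of the 10 passed and 2 (P4ha2 and P4ha3) had an unadjusted p under 0.05, while 4.26% of all tested genes passed. The 5 called genes then had edgeR adjusted p-values from 0.0837 to 0.475 with nearly the same log2 ratios. The authors' deposited values are those of DESeq2 with the same block, which gave the same adjusted p for all 10 genes, so they are not a separate check on the pairing. In the authors' deposited table the same 5 genes had adjusted p-values from 0.000480 to 0.0474, and the other 5 from 0.404 to 0.960. The signs there were the same as here for all 10, from -2.26 for P4ha3 to 0.23 for Plod1 on the log2 scale of the authors' deposited table.

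**Figure D1:**
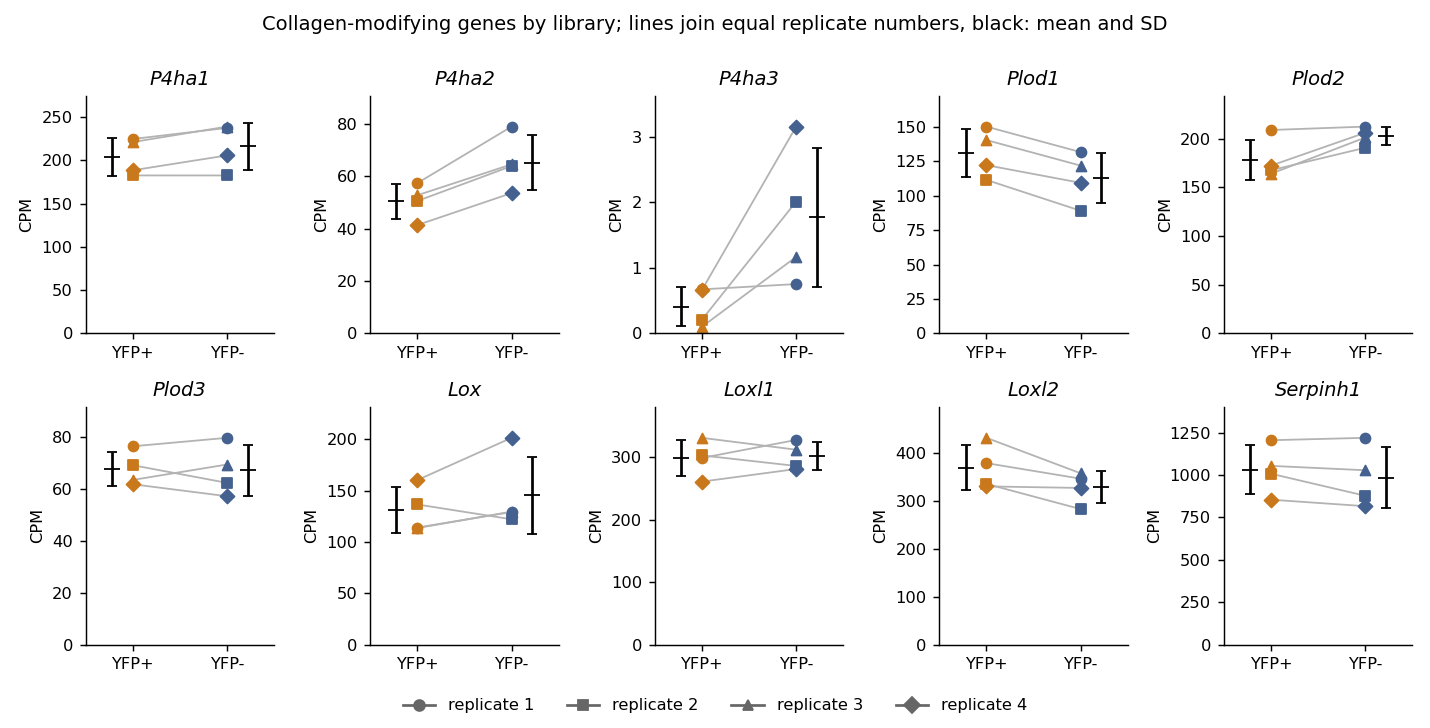
CPM of each of the 10 genes in the 4 YFP+ (left, orange) and 4 YFP- (right, blue) libraries, with a marker shape for each replicate number, lines joining equal numbers, and the mean and SD in black. For P4ha2 all 4 lines run upward to YFP-, for Plod1 all 4 run downward, and the spread between pairs is often wider than the difference within them.

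The alpha subunits of prolyl 4-hydroxylase carry its catalytic site, and each pairs with the beta subunit P4hb. P4ha1, the form most cells use, had 225, 183, 221 and 188 CPM in YFP+ replicates 1 to 4 and 238, 183, 239 and 206 CPM in YFP- replicates 1 to 4. The groups overlapped, and the log2 ratio was -0.08 (SE 0.05, edgeR adjusted p = 0.408).

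P4ha2 is a second alpha subunit, known from cartilage, bone and hypoxic cells among others. It had 57.4, 50.5, 52.7 and 41.3 CPM in YFP+ replicates 1 to 4, against 79.0, 63.9, 64.6 and 53.6 CPM in YFP- replicates 1 to 4. The 4 pairs gave similar log2 ratios of -0.46, -0.34, -0.29 and -0.37. Every YFP+ library was below its same-numbered partner, although YFP+ replicate 1 was above YFP- replicate 4. P4ha2 fell by 0.37 on the log2 scale (SE 0.07, edgeR adjusted p = 0.000731), to a level 0.776 times that in YFP-. It kept this call without any 1 of the 8 libraries, with edgeR adjusted p-values from 0.00167 to 0.0185. Without the block its adjusted p was 0.119.

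P4ha3, the third alpha subunit, was barely detected. Its counts were 18, 5, 3 and 19 in YFP+ replicates 1 to 4 and 17, 48, 27 and 87 in YFP- replicates 1 to 4, or 0.408 ± 0.299 CPM across YFP+ libraries and 1.77 ± 1.06 CPM across YFP- libraries (SD, n = 4 each). Pair 1 hardly differed, at a log2 ratio of -0.16, and pairs 2, 3 and 4 carried the difference, at -3.29, -3.57 and -2.26. The groups did not overlap on the CPM scale, but the gap was narrow. The highest YFP+ value was 0.670 CPM and the lowest YFP- value 0.751 CPM, both in replicate 1, with 18 and 17 counts. P4ha3 fell by 2.21 on the log2 scale (SE 0.63, edgeR adjusted p = 0.0198). Without YFP+ or YFP- replicate 1 the log2 ratio was -2.91, and over all 8 removals it ran from -2.91 to -1.86. The call was lost without either library numbered 2, 3 or 4, with adjusted p-values from 0.0850 to 0.150, and without the block (0.0837).

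The start regions of P4ha1 and P4ha2 are shown because these isoenzyme genes differed in call, while both are known as genes induced by low oxygen. Each is 300 bases of RefSeq sequence on GRCm38.p6, 250 before and 50 after a start in RefSeq, 5′ to 3′ on the gene's strand, and capitals mark ACGTG or GCGTG or their reverse complements, the core letters of the hypoxia response element. P4ha1 is at chr10:59323046-59323345 and P4ha2 at chr11:54100674-54100973, both on the plus strand. GENCODE, whose gene spans are given further on, begins P4ha2 upstream of this stretch, at 54100095, so that the stretch lies inside the GENCODE gene.
P4ha1: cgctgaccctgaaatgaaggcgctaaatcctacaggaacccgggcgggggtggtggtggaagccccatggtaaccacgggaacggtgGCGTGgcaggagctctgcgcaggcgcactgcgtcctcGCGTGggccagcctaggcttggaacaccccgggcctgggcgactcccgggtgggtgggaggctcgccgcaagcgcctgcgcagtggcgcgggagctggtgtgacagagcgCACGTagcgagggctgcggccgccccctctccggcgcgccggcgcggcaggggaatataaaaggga
P4ha2: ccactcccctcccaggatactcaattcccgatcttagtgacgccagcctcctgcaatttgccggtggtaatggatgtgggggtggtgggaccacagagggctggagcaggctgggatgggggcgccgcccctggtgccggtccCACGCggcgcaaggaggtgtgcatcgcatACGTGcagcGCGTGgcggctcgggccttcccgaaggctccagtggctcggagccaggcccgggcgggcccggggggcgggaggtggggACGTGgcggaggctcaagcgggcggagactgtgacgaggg
P4ha1 held 3 matches and P4ha2 held 4, while 43.8% of 32817 start regions of this length held at least 1, so the match describes these letters only.

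Calls differed among the lysyl hydroxylases as well. Plod1, the lysyl hydroxylase that mainly modifies lysines of the triple helix, had 150.3, 112, 140.5 and 122 CPM in YFP+ replicates 1 to 4, against 132, 89.1, 122 and 109 CPM in YFP- replicates 1 to 4. Every YFP+ library was above its partner, by log2 ratios of 0.19, 0.32, 0.20 and 0.16, and the groups overlapped. Plod1 rose, with a log2 ratio of 0.22 (SE 0.06, edgeR adjusted p = 0.0137), a level 1.16 times that in YFP-. The call was lost without either library numbered 2 or 3, with adjusted p-values from 0.0520 to 0.0772, and without the block (0.442).

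Plod2, which hydroxylates the lysines of the chain ends from which stable crosslinks form, had 209, 167, 164 and 172 CPM in YFP+ replicates 1 to 4 and 212, 191, 201 and 206 CPM in YFP- replicates 1 to 4. YFP+ replicate 1 lay within the YFP- libraries and the other 3 were below all of them. Plod2 fell by 0.19 on the log2 scale (SE 0.06, edgeR adjusted p = 0.0300). That call was lost without either library numbered 2, 3 or 4 (adjusted p from 0.0647 to 0.264) and without the block (0.334). Plod3, which also adds sugars to hydroxylysine, had 76.5, 69.2, 63.5 and 61.9 CPM in YFP+ replicates 1 to 4 and 79.8, 62.4, 69.5 and 57.2 CPM in YFP- replicates 1 to 4. The groups overlapped almost wholly, with YFP+ higher in 2 of 4 pairs. Plod3 averaged 67.8 ± 6.62 CPM across YFP+ libraries and 67.2 ± 9.76 CPM across YFP- libraries (SD, n = 4 each), a log2 ratio of 0.02 (SE 0.07, edgeR adjusted p = 0.920).

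The start regions of Plod1 and Plod3 are set beside each other, since Plod1 rose and its relative did not pass. They are 300 bases each, drawn and marked as above, Plod1 at chr4:147936727-147937026 on the minus strand and Plod3 at chr5:136986769-136987068 on the plus strand.
Plod1: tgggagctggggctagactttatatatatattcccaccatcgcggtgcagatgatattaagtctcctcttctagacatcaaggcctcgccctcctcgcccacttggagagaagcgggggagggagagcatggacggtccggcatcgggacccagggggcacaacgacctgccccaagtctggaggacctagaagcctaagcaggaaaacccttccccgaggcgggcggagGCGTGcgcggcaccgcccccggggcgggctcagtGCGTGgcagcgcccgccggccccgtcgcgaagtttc
Plod3: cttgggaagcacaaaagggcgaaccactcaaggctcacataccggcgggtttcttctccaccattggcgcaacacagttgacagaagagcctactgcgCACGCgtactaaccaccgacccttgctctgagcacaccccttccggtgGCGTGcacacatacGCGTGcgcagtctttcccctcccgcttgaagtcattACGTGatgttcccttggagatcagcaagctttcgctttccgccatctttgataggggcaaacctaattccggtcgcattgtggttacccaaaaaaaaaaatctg
Plod1 held 2 matches and Plod3 held 4. Of the 6 genes of the set whose start regions were taken, 5 held at least 1 match, Serpinh1 with 1 and P4ha3 with 0 among the rest. Of all start regions of this length 43.8% held at least 1. Those of Plod2, Lox, Loxl1 and Loxl2 were not taken, and 6 genes are too few to read a difference from.

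**Figure D2:**
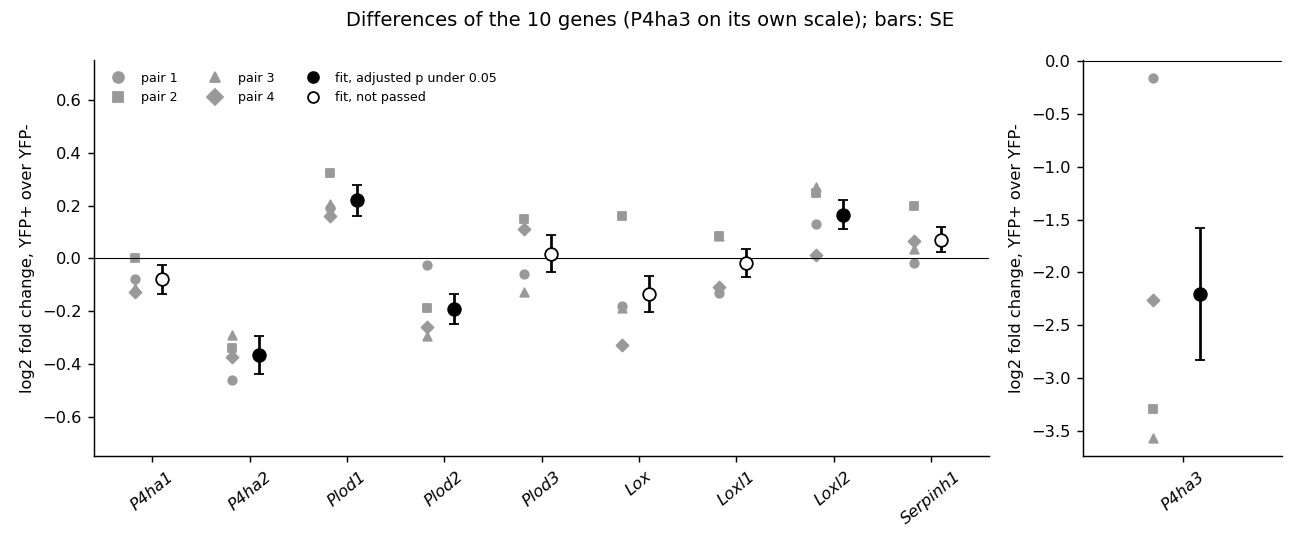
Log2 fold change of YFP+ over YFP- for each gene, with the fitted value and its SE in black (filled where the adjusted p was under 0.05) and the log2 ratio of each same-numbered pair in grey, P4ha3 on an axis of its own. P4ha2, Plod2 and P4ha3 lie below 0 and Plod1 and Loxl2 above it, with pair 1 of P4ha3 and of Plod2 near 0.

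Among the lysyl oxidases, Loxl2 was higher. Loxl2, known for crosslinking basement membrane collagen, had 379, 335, 432 and 330.2 CPM in YFP+ replicates 1 to 4, against 346, 283, 358 and 327 CPM in YFP- replicates 1 to 4. The groups overlapped, and the log2 ratios of pairs 1 to 4 were 0.13, 0.25, 0.27 and 0.01, so pair 4 was almost level. The log2 ratio was 0.17 (SE 0.05, edgeR adjusted p = 0.0459). The call was lost without either library numbered 1, 2 or 3 (adjusted p from 0.0679 to 0.309), with a stricter filter on low counts (0.0530) and without the block (0.475).

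Lox, the founding member, had 114, 137, 114 and 160.3 CPM in YFP+ replicates 1 to 4 and 129, 122, 129.5 and 202 CPM in YFP- replicates 1 to 4. Replicate 4 was the highest of each fraction, and replicate 2 was the pair in which YFP+ was higher. The log2 ratio was -0.14 (SE 0.07, edgeR adjusted p = 0.239). Without YFP+ replicate 2 it was -0.23 (adjusted p = 0.0193) and without YFP- replicate 2 it was -0.22 (0.0227), so that pair decided the call.

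Loxl1, which is needed for elastic fibres, had 299, 303, 331 and 261 CPM in YFP+ replicates 1 to 4 and 328, 286, 312 and 281 CPM in YFP- replicates 1 to 4. The groups overlapped, YFP+ was higher in 2 of 4 pairs, and the log2 ratio was -0.02 (SE 0.05, edgeR adjusted p = 0.890). Its sign turned when the libraries numbered 1 or 4 were left out. Serpinh1, the chaperone, had 1205, 1008, 1054 and 854 CPM in YFP+ replicates 1 to 4 and 1219, 877, 1028 and 816 CPM in YFP- replicates 1 to 4. In both fractions replicate 1 was highest and replicate 4 lowest, and the log2 ratio was 0.07 (SE 0.05, edgeR adjusted p = 0.405).

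Levels of different genes were compared per kilobase of merged exons (RPKM). In YFP+ the order was Serpinh1 (422 ± 59.1 RPKM), Loxl1 (90.5 ± 8.75), Loxl2 (68.3 ± 8.71), P4ha1 (49.6 ± 5.29), Plod2 (33.0 ± 3.85), Lox (27.4 ± 4.65), Plod1 (19.4 ± 2.58), Plod3 (14.997 ± 1.46), P4ha2 (8.09 ± 1.08) and P4ha3 (0.130 ± 0.0954), all RPKM with SD and n = 4. YFP- had the same order, with Serpinh1 at 403 ± 73.6 RPKM, Loxl1 at 91.5 ± 6.67, Loxl2 at 60.8 ± 6.09, P4ha1 at 52.6 ± 6.61, Plod2 at 37.6 ± 1.70, Lox at 30.5 ± 7.84, Plod1 at 16.7 ± 2.72, Plod3 at 14.9 ± 2.16, P4ha2 at 10.5 ± 1.67 and P4ha3 at 0.565 ± 0.339 RPKM (SD, n = 4). Serpinh1 thus had the highest level of the 10 in each fraction and P4ha3 the lowest. In YFP+ and in YFP- alike the library ranges of Plod2 and Lox overlapped, as did those of Plod1 and Plod3. Within libraries Plod1 was above Plod3 in 4 of 4 YFP+ and 3 of 4 YFP- libraries, and Plod2 was above Lox in 3 of 4 of each. The ranges of Loxl1 and Loxl2 overlapped in YFP+ and those of Loxl2 and P4ha1 in YFP-, although within each library the order held. All other neighbours in the order were apart in every library of a fraction.

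The order of the middle genes depended on the length used. Per kilobase of the longest coding transcript, P4ha2 averaged 22.3 RPKM across YFP+ libraries and 28.8 across YFP- libraries, above Plod3 at 20.7 RPKM for YFP+ and 20.5 RPKM for YFP-. Plod1 averaged 40.4 RPKM across YFP+ libraries and 34.8 across YFP- libraries, above Lox at 27.7 RPKM for YFP+ and 30.7 RPKM for YFP-. Plod2, at 48.6 RPKM across YFP+ libraries and 55.3 across YFP- libraries, came above P4ha1 in YFP- only, where P4ha1 was at 53.5 RPKM. Serpinh1, Loxl1 and Loxl2 stayed the highest and P4ha3 the lowest by either length.

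**Figure D3:**
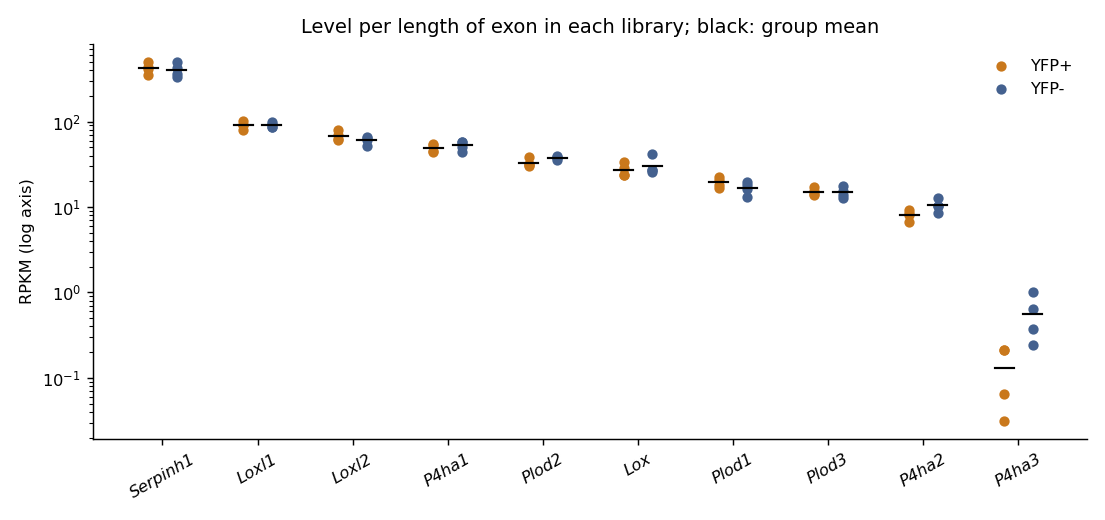
RPKM on a log axis for each gene in each library, YFP+ left of YFP- for every gene, with the group mean as a black line. Serpinh1 lies between 349.7 and 493 in YFP+ and between 334 and 499 in YFP-, above every other gene, and P4ha3 lies below every other gene.

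Ratios between isoenzymes within a library do not depend on how libraries are scaled. The P4ha2 to P4ha1 count ratio averaged 0.248 ± 0.0245 across YFP+ libraries and 0.303 ± 0.0447 across YFP- libraries (SD, n = 4 each). Plod2 over Plod1 averaged 1.37 ± 0.142 across YFP+ libraries and 1.82 ± 0.244 across YFP- libraries, so that its highest YFP+ value, 1.502, was below its lowest YFP- value, 1.61. Loxl1 over Loxl2 averaged 0.813 ± 0.0614 across YFP+ libraries and 0.923 ± 0.0705 across YFP- libraries. Each of these 3 ratios was lower in YFP+ in 4 of 4 pairs, by mean log2 differences of -0.29, -0.41 and -0.18. Plod3 over Plod1 was also lower in all 4 (0.522 ± 0.0708 across YFP+ libraries and 0.5998 ± 0.0751 across YFP- libraries), and Loxl2 over Lox was higher in all 4 (2.91 ± 0.795 across YFP+ libraries and 2.34 ± 0.519 across YFP- libraries). Of the 9 ratios within the 3 enzyme families, 6 moved in 1 direction in all 4 pairs, each with a two-sided exact sign-flip p of 0.125, the smallest that 4 pairs allow, and 0.188 after adjustment over the 9, so none could pass. Ratios of a family share its 3 genes and each is fixed by the others, so the 6 are not separate observations. Among single genes 30.2% of all tested moved in 1 direction in all 4 pairs, and the share for ratios of other genes was not computed.

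The main fibrillar collagen substrates fell. Col1a1, Col1a2 and Col3a1, the chains of the most abundant fibrillar collagens, were lower in YFP+, with log2 ratios of -0.24, -0.24 and -0.23 (edgeR adjusted p = 0.00111, 0.000820 and 0.000868). Without the block none of these 3 passed (edgeR adjusted p = 0.192, 0.153 and 0.178), and Col1a1 and Col3a1 are named outside the rule as substrates. Per 1000 counts of these 3 genes, Plod1 had 4.27 ± 0.578 counts across YFP+ libraries and 3.10 ± 0.321 across YFP- libraries, Loxl2 had 11.996 ± 1.31 across YFP+ libraries and 9.05 ± 0.386 across YFP- libraries, and Serpinh1 had 33.4 ± 3.81 across YFP+ libraries and 27.1 ± 3.597 across YFP- libraries (SD, n = 4 each). P4ha1 had 6.65 ± 0.683 counts across YFP+ libraries and 5.95 ± 0.310 across YFP- libraries. On this scale 6 of the 10 genes (P4ha1, Plod1, Plod3, Loxl1, Loxl2 and Serpinh1) were higher in YFP+ in 4 of 4 pairs, with an exact sign-flip p of 0.125 each, which cannot pass. The 3 collagen genes were themselves lower in YFP+, so a gene that is level in CPM comes out higher on this scale. By CPM, P4ha1, Plod3 and Loxl1 had log2 ratios of -0.08, 0.02 and -0.02. The share of all tested genes that are higher on this scale was not computed. P4ha2 had 1.64 ± 0.162 counts across YFP+ libraries and 1.80 ± 0.250 across YFP- libraries and was lower in 3 of 4 pairs. Plod2 had 5.81 ± 0.756 counts across YFP+ libraries and 5.61 ± 0.386 across YFP- libraries, and Lox had 4.30 ± 0.973 across YFP+ libraries and 4.06 ± 1.21 across YFP- libraries, each higher in 3 of 4 pairs. P4ha3 was lower in 3 of 4 pairs.

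**Figure D4:**
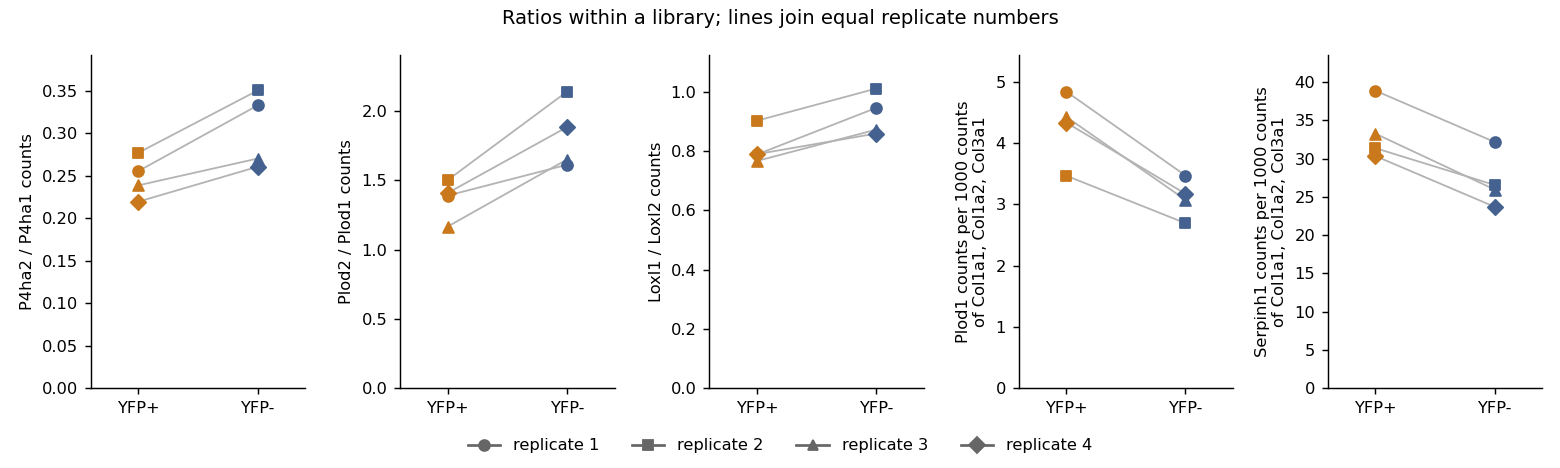
Count ratios within each library, YFP+ left and YFP- right, with lines joining equal replicate numbers. The P4ha2 to P4ha1, Plod2 to Plod1 and Loxl1 to Loxl2 ratios are lower in YFP+ in all 4 pairs, and Plod1 and Serpinh1 per 1000 counts of Col1a1, Col1a2 and Col3a1 are higher in YFP+ in all 4 pairs. These collagen genes were themselves lower in YFP+.

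Other genes of collagen folding and modification had log2 ratios from -0.24 to 0.28. Of 17 tested, 2 rose and 1 fell, with a median log2 ratio of 0.05, beside 0.01 over all tested genes and -0.05 over the 10. Over all tested genes 3.65% rose and 7.85% fell, the shares to set beside each list count below taken with the block. Loxl4, another lysyl oxidase, rose (0.27, SE 0.08, edgeR adjusted p = 0.0205), as did Crtap, a subunit of the prolyl 3-hydroxylase complex (0.21, SE 0.07, edgeR adjusted p = 0.0462). Creb3l1, a transcription factor that activates collagen genes in bone, fell (-0.21, SE 0.06, edgeR adjusted p = 0.0182). Crtap did not pass by DESeq2 (adjusted p = 0.0701) or limma-voom (0.0507), and Loxl4, Crtap and Creb3l1 each lost the call without at least 6 of the 8 libraries in turn, with edgeR adjusted p-values up to 0.181. P4hb, the beta subunit, was named outside the rule for its role, with a log2 ratio of 0.03 (edgeR adjusted p = 0.755).

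Genes that process secreted procollagen moved both ways. Of 10 tested, 3 rose and 3 fell (median -0.08). Adamts14 and Adamts3, proteases that cut off the amino-terminal propeptide, rose (0.32 and 0.40, edgeR adjusted p = 0.00244 and 0.00688). Pcolce2, an enhancer of carboxy-terminal propeptide cleavage, had 34.0 ± 4.16 CPM across YFP+ libraries and 68.6 ± 11.2 CPM across YFP- libraries (SD, n = 4 each), a log2 ratio of -1.01 (SE 0.08, edgeR adjusted p = 1.66e-09) with no overlap. Sparc, a collagen-binding matrix protein, fell (-0.19, edgeR adjusted p = 0.00882). Sparc lost the call without 6 of the 8 libraries in turn (adjusted p up to 0.139) and Adamts3 without 2 of them (up to 0.0670).

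Collagen genes moved both ways as well. Of 13 fibrillar and fibril-associated collagens tested, 3 rose and 6 fell (median -0.16). Col14a1, a fibril-associated collagen, and Col1a2 fell (-0.31 and -0.24, edgeR adjusted p = 1.57e-05 and 0.000820), while the fibrillar Col27a1 and Col24a1 rose (0.40 and 0.52, edgeR adjusted p = 7.06e-05 and 0.00193). Of 20 other collagens 7 rose and 5 fell (median -0.02). Col6a5, a chain of microfibrillar collagen, had 701 ± 33.8 CPM across YFP+ libraries and 409 ± 21.9 CPM across YFP- libraries (SD, n = 4 each), a log2 ratio of 0.78 (SE 0.05, edgeR adjusted p = 1.77e-11), and Col18a1, a basement membrane collagen, rose too (0.43, edgeR adjusted p = 4.87e-07). Col8a1, a short-chain collagen, and Col4a4, a basement membrane chain, fell (-1.004 and -1.07, edgeR adjusted p = 3.25e-10 and 2.31e-05).

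Elastic fibre genes, whose products lysyl oxidases also crosslink or bind, showed 6 rises and 4 falls among 17 tested (median 0.09). Efemp1 and Emilin1, which belong to elastic fibres or their surface, rose (0.40 and 0.36, edgeR adjusted p = 1.74e-06 and 1.82e-05), while Fbln1, a fibulin, and Emilin2 fell (-0.46 and -1.37, edgeR adjusted p = 1.64e-07 and 1.38e-05). Eln, which encodes elastin and is named outside the rule as the substrate, had a log2 ratio of 0.00 (SE 0.05, edgeR adjusted p = 0.997). Of 22 hypoxia response genes, a programme known to include P4ha1, P4ha2, Plod2, Lox and Loxl2, 4 fell and 0 rose (median -0.10). Over all tested genes 7.85% fell and 3.65% rose. Of these enzymes P4ha2 and Plod2 fell, Loxl2 rose, and P4ha1 and Lox did not pass. Ndrg1 had 89.5 ± 11.5 CPM across YFP+ libraries and 148 ± 18.6 CPM across YFP- libraries (SD, n = 4 each), a log2 ratio of -0.73 (edgeR adjusted p = 3.56e-09), and Hk2, a hexokinase, fell by 0.75 on the log2 scale (edgeR adjusted p = 3.54e-08). The oxygen-regulated factor Hif1a had a log2 ratio of -0.01 (edgeR adjusted p = 0.963), and Vegfa, a common target, 0.16 (0.144), both named outside the rule. The part of low oxygen in the differences of the enzymes was not tested.

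**Figure D5:**
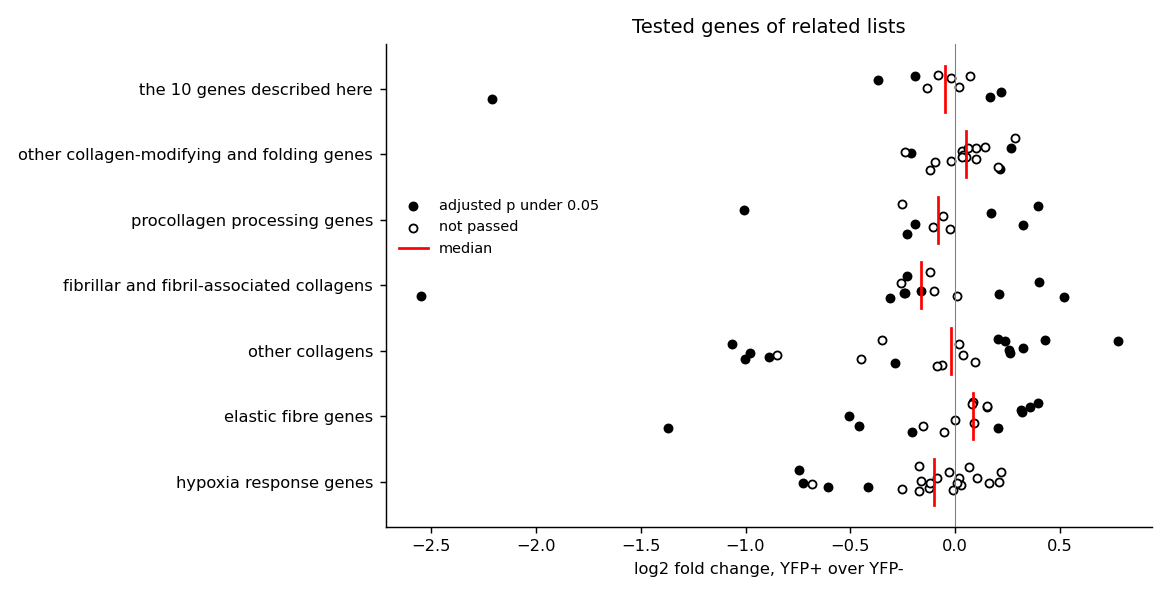
Log2 fold change of YFP+ over YFP- for every tested gene of the 10 described here and of 6 related lists, filled where the adjusted p was under 0.05, with the list median in red and points shifted up or down only to separate them. The medians of the 7 rows lie between -0.16 and 0.09, and called genes stand on both sides of 0 in every row except hypoxia response genes, where all 4 are below it.

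Without the block 11 of the 21 genes named from these 6 lists by rule lost the call. They were Loxl4, Crtap, Creb3l1, Adamts14, Adamts3, Sparc, Col27a1, Col24a1, Col1a2, Efemp1 and Emilin1, with edgeR adjusted p-values from 0.0527 to 0.437. The list counts without the block, rises before falls, were 0 and 0 for folding and modification, 0 and 1 for processing, 0 and 2 for fibrillar collagens, 3 and 3 for other collagens, 0 and 3 for elastic fibres, and 0 and 2 for hypoxia response. With 1 library left out, the 4 falls among hypoxia response genes became 2 without YFP+ replicate 4, YFP- replicate 1 or YFP- replicate 4. The 3 falls among processing genes became 1 without either library numbered 1, 3 or 4. Of the folding and modification genes 0 or 1 rose and 0 or 1 fell without any 1 library.

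Markers of other cells moved between the fractions alongside the enzymes. In bulk samples fewer cells of a type and less RNA per cell cannot be told apart. Of 12 enteric glial genes 11 fell, and their summed level lay between 287 and 412 CPM for YFP+ and between 650.1 and 806 CPM for YFP-, of which the sodium channel gene Scn7a made up most in both. Of 18 epithelial genes 8 fell (27.2 to 31.3 CPM summed in YFP+, 56.8 to 112 CPM in YFP-), and of 15 smooth muscle and myofibroblast genes 13 rose (1600 to 2389 CPM in YFP+, 1193 to 1628 CPM in YFP-). Of 11 endothelial genes 3 fell (51.1 to 63.9 CPM in YFP+, 69.6 to 99.6 CPM in YFP-), of 8 mural genes, with Higd1b of that list at 0 in YFP+, 1 rose and 2 fell (1225 to 1437 CPM in YFP+, 1107 to 1279 CPM in YFP-), and of 9 haematopoietic genes 0 passed (44.0 to 329 CPM in YFP+, 83.0 to 287 CPM in YFP-). Of 2 tested mesothelial genes 0 passed (4.47 to 4.98 CPM in YFP+, 7.36 to 9.15 CPM in YFP-), and Msln and Lrrn4, a pair of defining genes on that list of 6, had no count in YFP+. Of 11 stromal genes 1 rose and 5 fell, with a median of -0.23. Of 19 early-response genes 16 fell (9601 to 10235 CPM in YFP+, 12079 to 14396 CPM in YFP-). Without the block, 11 glial, 5 epithelial, 1 endothelial, 2 mural, 2 stromal and 10 early-response genes passed as lower, and 4 smooth muscle and 1 mural gene as higher. Acta2, the smooth muscle actin, was among those that then did not pass (edgeR adjusted p = 0.453). The part of these cells and genes in the differences of P4ha2, P4ha3, Plod1, Plod2 and Loxl2 was not tested.

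The called genes lie on GRCm38 as follows. P4ha2 (ENSMUSG00000018906) spans chromosome 11 from 54100095 to 54131665 on the plus strand and P4ha3 (ENSMUSG00000051048) chromosome 7 from 100285520 to 100319699 on the plus strand. Plod1 (ENSMUSG00000019055) spans chromosome 4 from 147909753 to 147936767 on the minus strand and Plod2 (ENSMUSG00000032374) chromosome 9 from 92542223 to 92608428 on the plus strand. Loxl2 (ENSMUSG00000034205) spans chromosome 14 from 69609068 to 69695834 on the plus strand. All 5 are protein-coding. Exons of 4 of the 10 genes overlap a gene on the opposite strand, by 346 bases in Plod2, 529 in Plod3, 30 in Lox and 301 in Loxl2. Since the strand setting of the counting is not given in the sources used here, those counts are uncertain to that extent.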

How the data were processed

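RNA was sequenced from 4 YFP+ and 4 YFP- libraries, built with the SMARTer stranded pico-input kit named in the labels' protocols. The tools listed in the submitters' processing notes are featureCounts 2.0.1, STAR 2.7.3a, DESeq2 and cutadapt 3.4, and the build is GRCm38 (mm10). The deposited table holds raw counts per gene, as the authors deposited them, with no normalisation. The authors' own log2 fold changes, with adjusted p-values, stand beside them. Its 8 normalised columns per library were not used here.

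The test was edgeR 4.0.16 (R 4.3.3). The table lists 53801 genes, 23010 of them without a count, and filterByExpr kept 16354. After TMM scaling the robust quasi-likelihood F test was run with the replicate number as a block, and p-values were adjusted by Benjamini-Hochberg over all genes tested, with a threshold of 0.05. CPM used TMM-scaled totals. The SE is the absolute log2 fold change divided by the square root of F. RPKM divides CPM by the merged exon length in GENCODE mouse release M21. DESeq2 1.42.0 and limma-voom 3.58.1 were alternatives, as were other scalings and filters, removal of mitochondrial and ribosomal RNA genes, no block, and removal of each library.

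Equal replicate numbers were taken as pairs by the rule set for this report, and the authors' deposited values come from a fit with the same block. As a check, deviations from the group means were computed on log2 CPM (pseudocount 0.5 CPM) of 5258 genes whose mean exceeded 5. They correlated at 0.38 to 0.64 for equal numbers and at -0.42 to 0.05 for others. Since deviations were centred within each group, positive correlations for equal numbers push the others towards negative values by construction. No label says what a number shares. Separate animals are not stated, and the p-values then cover no more than sample-to-sample spread, part of which may be technical. Libraries of a group all differed by more than sampling noise.

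The members, lists and rules were chosen with earlier results of these data known. All 10 members are named. From each of the 6 related lists up to 2 called genes per direction were named by smallest p. Ratios between members were chosen after their values were seen. Start regions are from RefSeq on GRCm38.p6. They were matched by symbol with chromosome 18, which holds Lox, left out, and this gave 6 of the 10 genes. No other sequence is shown.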

Additional observations from a re-analysis of the deposited data

Results flagged for a closer look

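Lox stood apart in 1 library. YFP- replicate 4 had 202 CPM, against 122 to 129.5 CPM in the other 3 libraries of that fraction. The 62 sets of 4 values looked at, those of the 10 genes and of the 21 named related genes in each fraction, gave this 1 case, where chance gives about 1 in 20 sets, or 3.1. YFP+ replicate 4 was also the highest of its fraction, at 160.3 CPM against 114 to 137 CPM. Without YFP- replicate 4 the log2 ratio of Lox was -0.06 (edgeR adjusted p = 0.732).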

How the results depend on the processing

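With the replicate block 1880 genes passed, 597 higher and 1283 lower in YFP+, and without it 697, 150 and 547. Of the 10 genes 5 passed with the block, 2 higher and 3 lower, and 0 without it, in either direction. A filter of 1 CPM in 4 libraries left 3 of the 10 called, 1 of them higher, since P4ha3 was then not tested and Loxl2 did not pass. Under DESeq2-style and upper-quartile size factors, without a filter, under removal of mitochondrial and ribosomal RNA genes, with DESeq2 (the authors' own fit, by its values) and with limma-voom, all with the block, the count stayed at 5, with 2 higher and 3 lower. Leaving out 1 library at a time gave 1178 to 1606 genes (330 to 511 higher, 830 to 1126 lower) and 1 to 4 of the 10 (0 to 2 higher, 1 to 3 lower). By construction the partner of a removed library then adds nothing to the contrast, so 3 pairs remain. The fewest came without YFP+ or YFP- replicate 3 (1178 and 1195 genes, and 1 of the 10 each). The log2 ratio of Plod3 ran from -0.0235 to 0.0726 and that of Loxl1 from -0.0508 to 0.0313 over these removals, both changing sign. The block changed the calls of the 5 genes and the 11 related genes already given, and no other call among the 10 and the 21 named by rule. Of 336 values of those 21 genes under other settings, 296 kept direction and call, 40 lost the call and 0 reversed. The low counts of P4ha3, 3 to 19 in YFP+ libraries, limit its precision.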
